A study of Mus musculus with 3 samples.

Results

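A set of 343 immune cells was examined that carried transcripts of Nkg7, a protein of cytotoxic granules, and Klrd1, the CD94 chain of natural killer (NK) receptors, but had no T-cell receptor (TCR) chain in the filtered contig list. The cells were taken from 9349 cells that passed the filters in 1 lane of single-cell sequencing. They were selected on their own measured values: at least 3 unique molecular identifiers (UMIs, each a counted RNA molecule) of Nkg7, at least 1 of Klrd1, at most 1 of the epithelial gene Epcam, at most 1 summed over the γδ TCR genes Tcrg-V6 and Trdv4, and no contig in the filtered TCR list. These values describe the cells and were not treated as results. The cells are called Klrd1 cells without a filtered TCR chain.

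The lane held 2 pools of wild-type, untreated mouse cultures on culture day 13. Per the paper, both were kept in medium with the growth factor FGF7 and, at first, thiazovivin. The organoid reaggregate fetal thymic organ culture (ORFTOC) pool came from thymic epithelial cells that had been grown as organoids and then reaggregated with epithelium-depleted fetal thymus cells and mouse embryonic fibroblasts. For the fetal thymic organ culture (FTOC) pool, whole lobes of fetal thymus had been cultured. The paper gives an older embryonic age for the organoid epithelium than for the depleted thymus cells and the lobes. The age of the epithelium therefore differed between pools along with the culture type. Cells of 2 cultures were mixed in each pool before a hashtag antibody was added, so each pool was 1 sample, no test between pools could be made, and the cultures could not be told apart.

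NK cells and group 1 innate lymphoid cells kill or secrete cytokines without a rearranged receptor and recognise targets through NK receptors of the Klr families and through Ncr1. Several T cell lineages also carry these receptors, among them γδ T cells and CD8αα T cells that arise in the thymus. The CD3 chains (Cd3d, Cd3e, Cd3g, Cd247) hold a TCR at the cell surface, although precursors and innate cells can transcribe some of them without one. The receptor kit of these libraries amplifies TCR alpha (TRA) and beta (TRB) chains, so γδ chains are not its targets. Cells with γδ transcripts can still have a TRA or TRB contig, so the lack of one does not mark a γδ cell.

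The Klrd1 cells without a filtered TCR chain numbered 128 in ORFTOC and 215 in FTOC. They were 4.33% of 2958 ORFTOC immune cells (exact 95% interval 3.62 to 5.12) and 8.58% of 2507 FTOC immune cells (7.51 to 9.74), where immune cells were those with a UMI of Ptprc (CD45) or belonging to the set. All intervals cover counting error only and not the spread between cultures. With 95% rather than 80% hashtag purity the FTOC share was 21.0% and the ORFTOC share 4.67%, so the gap between pools moved with the hashtag threshold. The ORFTOC pool gave 37.3% of the set (32.2 to 42.7), against 55.3% of all other immune cells (53.9 to 56.6). Among 359 cells that met the same gene thresholds and did have a TRB chain, 50.1% came from ORFTOC (44.8 to 55.4).

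The label of cytotoxic cells was checked against its markers. Nkg7 ranged from 3 to 41 UMIs per cell (median 10) and Klrd1 from 1 to 30 (median 6), as the selection set. Gzmb, which encodes the granule protease granzyme B, was detected in 42.9% of the cells (37.6 to 48.3), and Eomes, a transcription factor of NK and memory T cells, in 21.9% (17.6 to 26.6). Prf1, which encodes the pore-forming protein perforin, was nearly absent, with 5 UMIs in all 343 cells. Gzma was lower than in other immune cells, as given below. Of genes of circulating NK cells, picked after the values were seen, Itga2 (CD49b) was found in 7 cells, Klrg1 in 2 and S1pr5 in 0. Of the fixed NK marker list, 4 of 5 genes compared were past 2-fold higher than in other immune cells and 1 was lower (median log2 2.08). No cell type name is given to the set.

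Just outside the thresholds lay 152 cells that met every other criterion with 0 Klrd1 UMIs, 124 of them from ORFTOC. Their Gzmb level was 591 CPM, the summed UMIs of a gene scaled to a fixed total of UMIs per group, and their Xcl1 level 739.6 CPM. Just inside lay 49 cells with 1 Klrd1 UMI, 23 of them from ORFTOC, with a Gzmb level of 329 CPM and an Xcl1 level of 674 CPM. At the Nkg7 threshold, 14 cells with 2 UMIs and 19 cells with 3 UMIs each held 4 ORFTOC cells, with Ccl5 levels of 914 and 1369.9 CPM.

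The cells of the set were deeper than other immune cells. The median was 10225 UMIs per cell in ORFTOC and 9290 in FTOC, against 6547 and 3674 in other immune cells and 11911 in the Klrd1 cells with a TRB chain. The median mitochondrial share was 2.08%. The Y-linked genes Ddx3y, Eif2s3y, Kdm5d and Uty were detected in 52.3% of the ORFTOC cells of the set and in 0.465% (1 cell) of the FTOC cells. Xist was detected in 30.5% and 87.0%. The sex of the embryos and the culture type therefore cannot be told apart in any comparison between pools.

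The absence of a filtered contig did not mean that no TCR RNA had been sequenced. In the unfiltered list, 312 of the 343 cells had at least 1 contig, 759 in total, and none of these stood in a barcode that the TCR software had called as a cell. The most frequent class, 205 cells or 59.8% (54.4 to 65.0), had contigs without a V gene alone. A further 87 cells (25.4%) had a V gene but nothing productive, 20 cells (5.83%, 3.60 to 8.86) had a productive contig, and 31 cells (9.04%) had no contig. Among 2171 epithelial reference cells (at least 3 Epcam UMIs and no Ptprc UMI) 92.1% had no contig and 3.82% (3.06 to 4.72) had a productive contig, a share whose interval overlaps that of the set. Of 1784 other immune cells without a filtered contig, 49.7% had contigs without a V gene alone, also the most frequent class there. A productive contig was found in 16.3% of them.

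All 571 contigs without a V gene carried a J gene, none carried a D gene, and 563 carried a TRB constant gene. TRBJ2-1 was the J gene of 183 of them (32.05%) and TRBJ2-7 of 131 (22.9%). TRBC2 was the constant gene of 404 and TRBC1 of 159. They were found in 285 cells of the set, with a median of 10 UMIs behind each.

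The productive TRB contigs in the unfiltered list are shown because their number per cell sets them apart from a single receptor. Of the 20 cells with a productive contig, 15 held at least 2 different TRB junctions, 6 of these at least 3, 3 cells held 1 and 2 cells held TRA only. The junctions of 1 FTOC cell with 3 TRB contigs were as follows, written 5′ to 3′ with the first and last codons of the junction, a cysteine and a phenylalanine codon, in capitals.

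TRBV12-2 with TRBV13-2 and TRBJ2-7, 34 UMIs: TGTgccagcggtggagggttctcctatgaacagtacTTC
TRBV3 with TRBJ1-3, 28 UMIs: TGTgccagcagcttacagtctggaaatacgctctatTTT
TRBV12-2 with TRBV13-2 and TRBJ1-6, 20 UMIs: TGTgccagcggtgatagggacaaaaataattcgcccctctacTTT

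The junctions of the 3 cells with a single productive TRB contig, all from ORFTOC, were the following.

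TRBV20 with TRBJ1-2, 10 UMIs: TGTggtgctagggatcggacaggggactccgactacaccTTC
TRBV14 with TRBJ2-7, 20 UMIs: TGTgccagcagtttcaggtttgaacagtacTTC
TRBV12-2 with TRBJ2-7, 27 UMIs: TGTgccagctctgcatatgaacagtacTTC

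The cells with at least 2 TRB junctions had a median of 12797 UMIs, above the 9595 UMIs of cells without a productive contig. Removing 922 likely doublets from all groups, 6 of them in the set, and, in another run, all 20 cells with a productive contig, left each of the 4 gene counts given below within 1.5 times. The part of doublets or free RNA in these contigs was not tested.

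**Figure D1:**
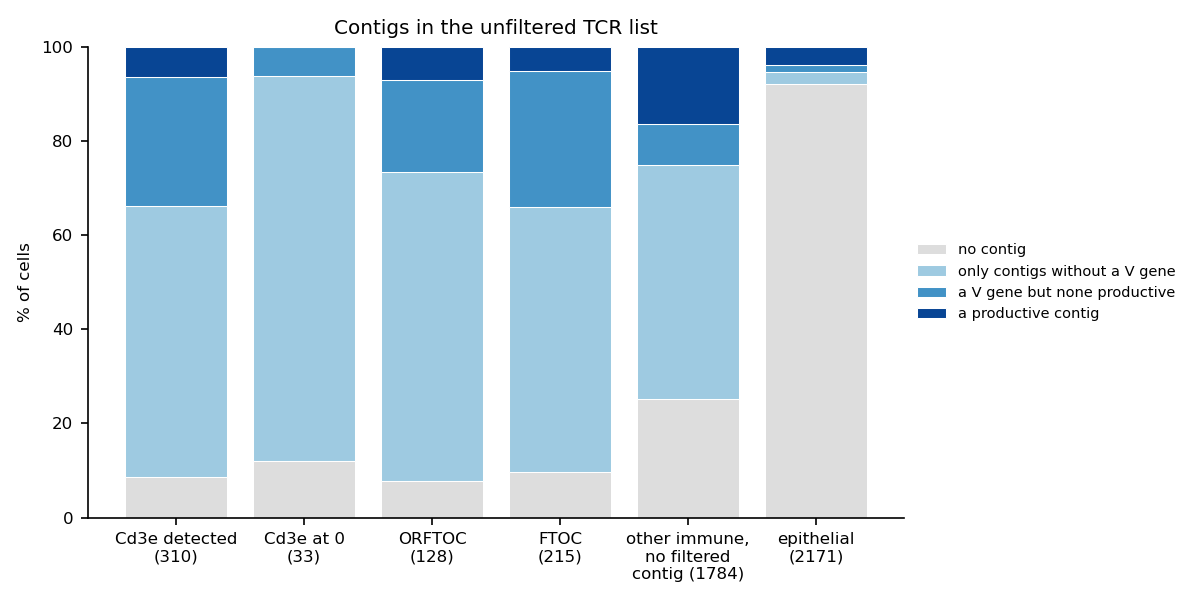
Share of cells (%, vertical axis) by the best contig in the unfiltered TCR list, for the Klrd1 cells without a filtered TCR chain split by Cd3e and by pool, other immune cells without a filtered contig, and epithelial cells, with cell numbers below the bars. Contigs without a V gene were the only kind in 57.4% of the cells with Cd3e and 81.8% of those without, and 92.1% of epithelial cells had none.

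The γδ TCR genes were transcribed in most of the set. Trdc, the delta constant gene, was detected in 67.6% of the cells (62.4 to 72.6), and at least 1 gamma constant gene in 89.8% (86.1 to 92.8). Both were present in 216 cells (63.0%) and neither in 19 (5.54%). In the epithelial reference cells Trdc was detected in 0.645%, at a median of 12827 UMIs. The part of free RNA in these shares was not tested. Trac, the alpha constant gene, was detected in 22.7% of the set, against 59.1% of the Klrd1 cells with a TRB chain. Trdc without Trac was found in 52.2% of the set and in 16.2% of the cells with a TRB chain. The choice of cells by their contigs favours both of these differences. The beta constant genes were detected in 81.0% of the set (76.5 to 85.1).

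Delta V transcripts tended to come from 1 gene per cell, and gamma V transcripts from several, in the set and in the groups compared with it. Of 176 cells with at least 2 delta V UMIs, 145 had 1 gene with at least 80% of them. Trdv5 was detected in 65 cells and led in 45, Trav13-4-dv7 was detected in 48 and led in 29, and Trdv2-2 was detected in 50 and led in 21. Of 294 cells with at least 2 gamma V UMIs, only 49 had 1 gene with at least 80%. For delta V genes the same held in 715 of 897 other immune cells and 87 of 116 Klrd1 cells with a TRB chain. For gamma V genes it held in 365 of 987 and 74 of 197. Trgv2 was the most widespread gamma V gene, in 83.1% of the set (78.7 to 86.9), and its prominence was noticed after the values were seen. Tcrg-V1 was in 37.9%, Tcrg-V4 in 36.7%, Tcrg-V5 in 27.4% and Tcrg-V7 in 11.4%. A V transcript need not be rearranged, and 5′ UMI counts do not show whether it was joined to a J gene. Between pools, Tcrg-V5 transcripts were more frequent in ORFTOC, at 37.5% (29.1 to 46.5), than in FTOC, at 21.4% (16.1 to 27.5). Trgv2 was in 75.8% (67.4 to 82.9) and 87.4% (82.3 to 91.6).

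**Figure D2:**
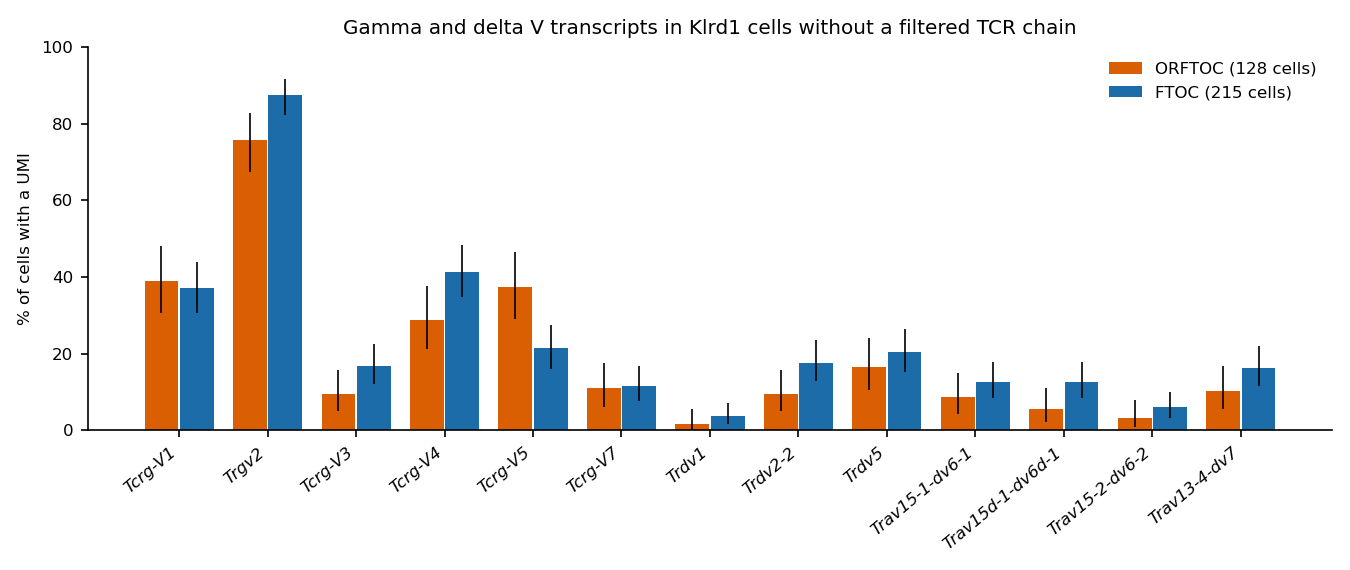
Share of the Klrd1 cells without a filtered TCR chain with a UMI (%, vertical axis) of each gamma and delta V gene, in ORFTOC (128 cells) and FTOC (215 cells), with exact 95% intervals. Trgv2 was the most frequent in both pools (75.8% and 87.4%), and Tcrg-V5 was more frequent in ORFTOC (37.5% against 21.4%).

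Against all 5122 other immune cells, the set was higher in NK receptors, Xcl1, Ccl5 and granzymes B and C and lower in genes of double-positive (DP) thymocytes. A gene was compared where its mean level over both groups was at least 20 CPM, and counted where its ratio of summed levels passed 2-fold. Of 5954 genes, 114 were higher (1.91 percent of those compared) and 390 lower (6.55 percent), and the median gene had a log2 ratio of -0.14. Part of the contrast follows from choosing cells on Nkg7 and Klrd1 and without a filtered contig. Of the other immune cells, 1784 lacked a filtered contig. That difference favours lower alpha and beta TCR genes, lower DP genes and higher γδ genes in the set. The values are therefore given as description.

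Cytotoxic effectors had 6 genes of 8 compared past 2-fold higher and 1 lower (median log2 1.55). Gzmb was at 340 CPM in ORFTOC and 696 CPM in FTOC cells of the set, against 132 CPM in other immune cells. Gzmc, another granule protease, was at 1172 CPM and 781 CPM, against 106 CPM. Ctsw, a protease of NK and CD8 T cells, was at 774 CPM and 698 CPM, against 162 CPM, and was detected in 98.3% of the set. Gzma went the other way, at 80.9 CPM in ORFTOC and 65.8 CPM in FTOC against 200.2 CPM in other immune cells. For Gzmb, Gzmc and Ctsw, the set in either pool lay above other immune cells of both pools, and for Gzma below. Each level is 1 sum per group and pool, and how many of all genes did so was not counted.

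Granzyme transcripts were concentrated in few cells. The 34 cells with most Gzmc UMIs held 84.9% of all, and the 34 with most Gzmb UMIs held 69.5%. The median cell had 0 UMIs of either gene, and the highest had 338 of Gzmc and 194 of Gzmb. Ctsw was spread evenly, with 25.6% of its UMIs in the top 34 cells.

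NK receptors had 9 genes of 10 compared past 2-fold higher and 0 lower (median log2 1.93). Cd160, a receptor for HVEM and class I molecules, was at 528 CPM against 133 CPM and was detected in 88.9% of the set. Klra5, of the Ly49 family, was at 191 CPM against 16.9 CPM, a log2 ratio of 3.50 (3.35 to 3.65), in 30.9% of the set. Klrb1c, which encodes NK1.1, was at 47.1 CPM against 6.33 CPM, and Klrb1a at 41.9 CPM against 6.103 CPM. Other Ly49 genes, Klra1, Klra3, Klra4, Klra6, Klra7, Klra8, Klra9 and Klra10, had between 0 and 9 UMIs in all 343 cells.

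The list of effector cytokines and chemokines had 2 genes of 9 compared past 2-fold higher, Xcl1 and Ccl5, and 3 lower (median log2 -0.70). The median of these 9 genes changed sign, to 0.25, when cells with at least 5 macrophage or mesenchymal UMIs were left out of both groups. Xcl1 and Ccl5 encode chemokines, which attract dendritic cells and T cells. Xcl1 ranged from 0 to 577 UMIs per cell with a median of 5, at 1600.1 CPM in ORFTOC and 2094 CPM in FTOC against 242 CPM in other immune cells. Ccl5 ranged from 0 to 120 UMIs with a median of 4, at 997 CPM and 913 CPM against 208 CPM. Of the cytokines in that list, Ltb (lymphotoxin beta) was found in 329 of 343 cells, Tnf in 23, Ifng in 18, Il22 in 3 and Il17a in 0.

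The other leading genes by the fixed rule were Car2, Cd7, Ifitm1, Ly6c2, Cxcr3, Pglyrp1, Itgae, Il2rb and AW112010, with log2 ratios between 2.02 and 2.97. Cd7, a receptor on T and NK lineage cells, was at 2544 CPM against 440.0 CPM. Itgae, the CD103 chain that binds epithelial E-cadherin, was at 205 CPM against 48.9 CPM, in 80.2% of the set. Il2rb, the shared receptor chain for IL-2 and IL-15, was at 344 CPM against 84.5 CPM. The lowest genes by the same rule were Bpifa1, H2-Ab1, H2-Aa, Cd74, H2-Eb1, Cd24a, Dntt, Aqp11, Krt8 and Krt18, which include genes of epithelium, antigen presentation and DP thymocytes. The set was capped at 1 Epcam UMI and the comparison cells were not, so low epithelial genes follow in part from the selection. Against other immune cells with the same cap the log2 ratio was -2.12 for Bpifa1, -0.59 for Krt8 and -0.56 for Krt18. An alternative subtracted the profile of empty droplets, at a share set by the levels of epithelial genes that included Krt18. That share came to 35.1% in other immune cells and 1.64% in the set. Cells with at least 5 UMIs of the epithelial list made up 9.35% of other immune cells, so the share does not measure free RNA alone. Krt18 reversed, to 3.44, after the subtraction, which its part in setting the share favours, so the reversal is not read as a result. All 6 DP markers compared were past 2-fold lower, among them Dntt at 7.76 CPM against 211 CPM and Rag1 at 13.7 CPM against 178 CPM.

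Transcription factors divided. Of 18 regulators compared, 3 were past 2-fold higher and 7 lower. Zbtb16 (PLZF), the factor of innate-like T cells and innate lymphoid precursors, was at 34.9 CPM against 9.08 CPM. Tbx21 (T-bet) was at 39.8 CPM against 7.62 CPM and Eomes at 29.5 CPM against 8.58 CPM. Tbx21 without Eomes was found in 23.3% of the set, Eomes without Tbx21 in 18.4%, and both in 3.50%. Ikzf2 (Helios) was at 331 CPM against 127 CPM. Bcl11b, of T cell commitment, was lower, at 48.1 CPM against 143 CPM.

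Cd3d and Cd3g lay within 2-fold of other immune cells, while Cd8b1 and Cd4 were lower. Cd3d was at 986 CPM against 654 CPM in other immune cells and Cd3g at 900.3 CPM against 555 CPM, while Cd8b1 was at 99.3 CPM against 492 CPM and Cd4 at 8.27 CPM against 71.0 CPM. Over the CD3 and TCR list, 3 genes of 23 were past 2-fold higher (Trdc, Tcrg-C2 and Tcrg-C4) and 7 lower (median log2 -0.57). Of 11 γδ genes compared, 8 were higher and 2 lower (median log2 1.90), where Tcrg-V6 and Trdv4 were capped by the selection. The choice of cells without a filtered contig favours the higher γδ values.

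**Figure D3:**
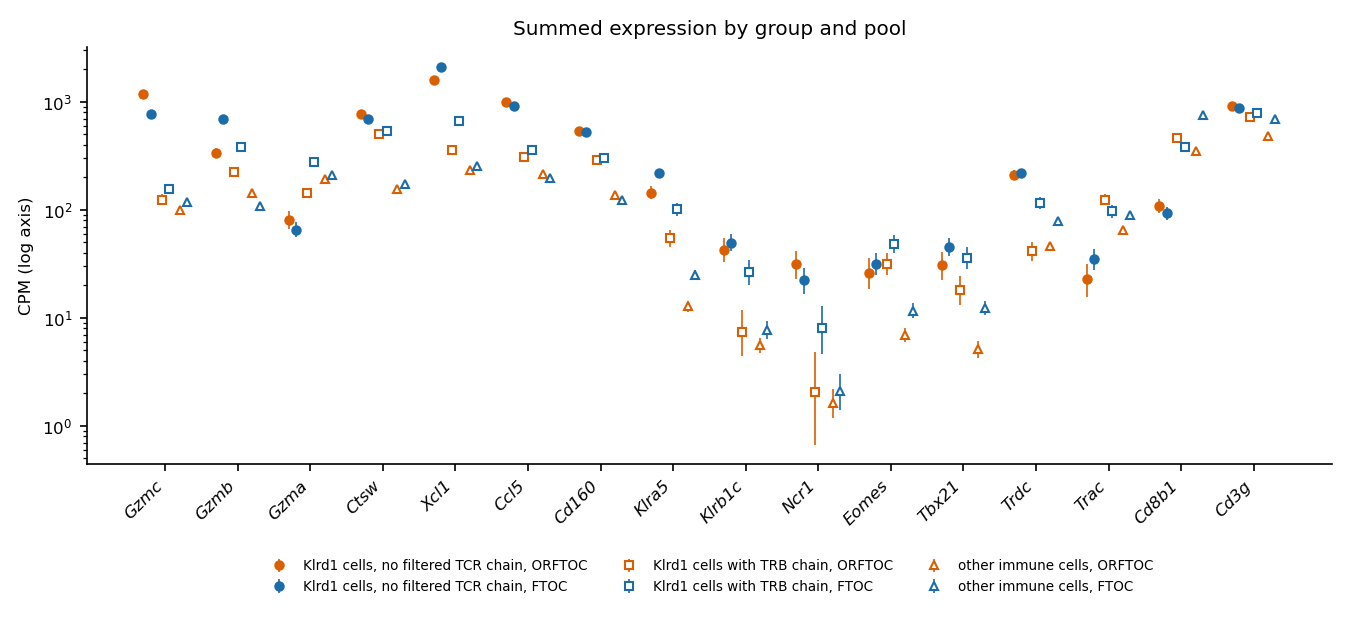
Summed level (CPM, log axis) of 16 genes in the Klrd1 cells without a filtered TCR chain (filled circles), Klrd1 cells with a TRB chain (squares) and other immune cells (triangles), for ORFTOC (orange) and FTOC (blue), with exact Poisson 95% intervals. Gzmc, Xcl1 and Ncr1 were highest in the cells without a filtered TCR chain in both pools, while Gzma, Trac and Cd8b1 were lowest there.

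A close comparison was with the 359 Klrd1 cells that had a TRB chain, which met the same gene thresholds. Of 5459 genes, 103 were past 2-fold higher in the cells without a filtered TCR chain (1.89 percent) and 30 lower (0.55 percent), with a median log2 ratio of -0.02. Gzmc was at 932 CPM against 140 CPM, a log2 ratio of 2.74 (2.62 to 2.86). Xcl1 was at 1903 CPM against 501 CPM, and Car2, a carbonic anhydrase, at 268 CPM against 74.4 CPM. The adaptor genes Tyrobp (DAP12) and Fcer1g, which carry the signals of NK receptors, were at 436 CPM against 106 CPM and 692 CPM against 222 CPM. Cd163l1, a scavenger receptor gene of γδ T cells, was at 393 CPM against 117 CPM. Ifitm2 and Tcrg-C4 completed this list, together with Lyz2 and Apoe, of whose UMIs 5 cells held 97.3% and 96.6%.

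γδ genes were higher in 8 of 9 compared and lower in 0 (median log2 1.60), and NK receptors in 5 of 10 and lower in 0 (median log2 0.98). The kit amplifies TRA and TRB chains, so choosing cells without a contig favours γδ transcripts, and the γδ values here are description. Lower in the cells without a filtered TCR chain were Cd8b1, at 99.3 CPM against 426 CPM, Cd8a, at 149 CPM against 418 CPM, and Gzma, at 71.6 CPM against 206 CPM. Ccr7 (68.3 CPM against 160.0 CPM), Lef1 (51.2 CPM against 113 CPM) and Satb1 (115 CPM against 245 CPM), genes of maturing T cells, were also lower. Trac and the V genes Trbv12-2, Trbv16 and Trbv13-2 were lower too, which the choice of cells without a contig set. Gzmb differed less, at 559 CPM against 299 CPM, and Eomes was lower, at 29.5 CPM against 39.5 CPM, a log2 ratio of -0.42 (-0.77 to -0.08).

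Cd3e was detected in 310 of the 343 cells (90.4%, 86.8 to 93.3) and was at 0 in 33. In the Klrd1 cells with a TRB chain it was detected in 99.4%. The cells with Cd3e at 0 were 16.4% of the set in ORFTOC (21 cells, 10.5 to 24.0) and 5.58% in FTOC (12 cells, 2.92 to 9.55). Their median depth was 8144 UMIs, against 10179.5 UMIs in cells with Cd3e. The split was made on Cd3e, so Cd3e itself is not compared. It also favours differences in genes that go with Cd3e, such as other CD3 and TCR genes, whose values are description.

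The cells with Cd3e at 0 were high in Gzmc, Ncr1, Klrb1b and the adaptors Fcer1g and Tyrobp, and low in Cd3d, Trgv2, Trdc and Cd8b1. Of 5545 genes, 243 were past 2-fold higher in cells with Cd3e (4.38 percent) and 264 lower (4.76 percent), with a median log2 ratio of 0.01.

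Gzmc was detected in 26 of the 33 cells with Cd3e at 0 (78.8%, 61.1 to 91.0) and in 93 of the 310 with Cd3e (exact interval 24.95% to 35.4%). It ranged from 0 to 338 UMIs per cell with a median of 20 in the former, and from 0 to 284 with a median of 0 in the latter. The summed level was 8299 CPM in ORFTOC and 4409 CPM in FTOC cells with Cd3e at 0, against 208 CPM and 631 CPM with Cd3e. The summed level was higher with Cd3e at 0 in each pool, but single cells of the 2 classes overlapped. The 5 highest cells held 60.9% of the Gzmc UMIs of the 33. Gzmc was named in part for its extreme ratio in this split.

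NK receptors had 0 genes of 16 compared past 2-fold higher in cells with Cd3e and 9 lower (median log2 -1.06). Ncr1, the NKp46 receptor gene, was detected in 13 of the 33 cells (39.4%, 22.9 to 57.9) and in 13 of the 310 (4.19%, 2.25 to 7.06). Its level was 210 CPM against 12.0 CPM. Klrb1b was detected in 72.7% and 7.10%, at 268 CPM against 13.4 CPM. Klrk1 (NKG2D) was at 147 CPM against 24.8 CPM, Klrb1a at 147 CPM against 33.9 CPM, and Lag3 at 103 CPM against 19.2 CPM.

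Fcer1g was at 1735 CPM in cells with Cd3e at 0 and 613 CPM in the others, and Tyrobp at 1217 CPM and 377 CPM. Both adaptors were detected in 75.8% of the former (57.7 to 88.9) and 33.2% of the latter (28.0 to 38.8). Id2, a factor that all innate lymphoid cells require, was at 529 CPM and 175 CPM, and Id3, which is linked to T and γδ T cell fates, at 51.5 CPM and 194 CPM. Chemokines were also higher in cells with Cd3e at 0, Xcl1 at 3853 CPM against 1756 CPM and Ccl5 at 2239 CPM against 848 CPM.

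Not every CD3 gene was low in cells with Cd3e at 0. Cd3g was detected in 30 of the 33 cells, with a median of 10 UMIs, close to the median of 9 UMIs in cells with Cd3e, and its level was 1261 CPM against 873 CPM. Cd3d was detected in 14 of the 33 (42.4%), at 452 CPM against 1027 CPM. Both Cd3d and Cd3g were found in 39.4% (22.9 to 57.9) of cells with Cd3e at 0 and 98.7% (96.7 to 99.6) of cells with it. The CD3 and TCR list had 10 genes of 19 past 2-fold higher in cells with Cd3e and 0 lower (median log2 1.02), a direction that the split on Cd3e favours.

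γδ receptor genes also differed. Trdc was detected in 36.4% of cells with Cd3e at 0 (20.4 to 54.9) and 71.0% of the others (65.6 to 76.0), and Trgv2 in 24.2% and 89.4%. At least 1 gamma constant gene was detected in 29 of 33 and 279 of 310 cells, so a gamma constant transcript did not separate the classes. Tcrg-C4 was at 199 CPM against 100.1 CPM, higher in cells with Cd3e at 0, whereas Tcrg-C2 was at 40.4 CPM against 122 CPM. Cd8b1 was found in 0 of 33 cells, for which the exact interval reaches 10.6%, and in 23.5% of the others. No productive contig was found among the 33 cells, 27 had contigs without a V gene alone, and 4 had no contig.

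The remaining genes by the fixed rule that were higher in cells with Cd3e at 0 were Upp1, Lta, Serpina3g, Asb2, Pglyrp1 and Ckb. Upp1, a uridine phosphorylase, was detected in 39.4% against 0.968%. Its level was 586 CPM in FTOC and 39.3 CPM in ORFTOC cells with Cd3e at 0. Over the set, Upp1 was found in 9 FTOC and 7 ORFTOC cells, and 5 cells held 71.0% of its UMIs. Higher in cells with Cd3e were Cd2, Gramd3, Id3, Ly6c2 and Rgs10, with log2 ratios between 1.75 and 2.04. Ly6c2 was detected in 60.3% and 15.2%. Lyz2, Apoe and Mfge8 also met the rule, but 5 cells held between 75.3% and 97.3% of their UMIs, and without the 9 cells that carried macrophage or mesenchymal markers the log2 ratio was -0.21 for Lyz2 and 0.11 for Mfge8, with too few Apoe UMIs for a ratio.

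**Figure D4:**
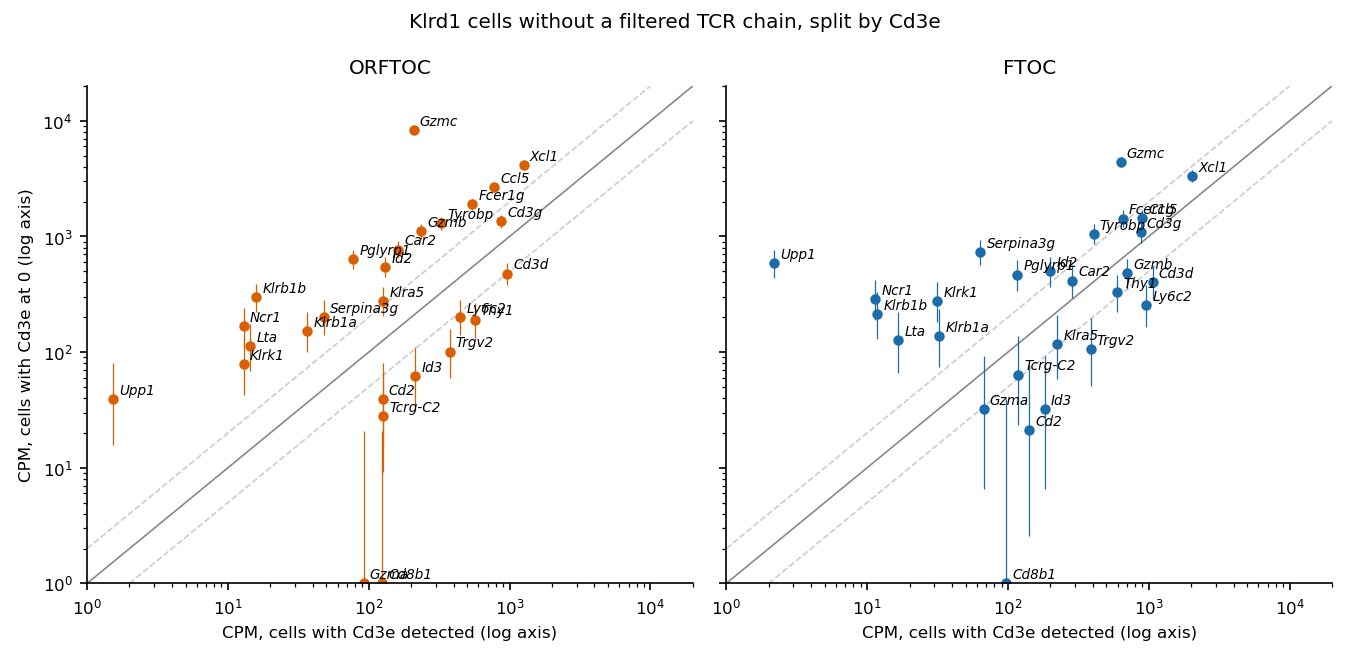
Level in cells with Cd3e at 0 (CPM, vertical, log axis, exact Poisson 95% intervals) against cells with Cd3e detected (CPM, horizontal, log axis) in ORFTOC and FTOC, with the line of equal level and dashed lines at 2-fold; levels under 1 CPM are drawn at 1. Gzmc, Ncr1, Klrb1b and Upp1 lay above the upper dashed line in both pools, and Trgv2, Id3 and Cd2 lay on the other side of equal level, with Cd8b1 at 0.

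Most of these differences had the same direction in each pool. Ncr1 was at 168 CPM in ORFTOC and 288 CPM in FTOC cells with Cd3e at 0, against 12.9 CPM and 11.4 CPM with Cd3e. Klrb1b was at 298 CPM and 213 CPM, against 15.9 CPM and 11.8 CPM. Trgv2 was at 101 CPM and 107 CPM, against 375 CPM and 386 CPM. Gzmb did not hold its direction: in ORFTOC it was at 1106 CPM with Cd3e at 0 against 236 CPM with Cd3e, and in FTOC at 479 CPM against 705 CPM.

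Each cell was also thinned to 1000 UMIs, which left out 0 cells of the set, to remove the gap in depth. Gzmc was then detected in 63.6% of cells with Cd3e at 0 (45.1 to 79.6) and 13.9% of the others (10.2 to 18.2). Klrb1b was detected in 30.3% (15.6 to 48.7) and in 0 of 310 cells, and Ncr1 in 18.2% (6.98 to 35.5) and 1.29% (0.353 to 3.27). Fcer1g was detected in 63.6% and 31.0%, and Trdc in 3.03% and 21.0%. In full depth the ILC3 marker list, which holds Il22 and Tmem176b among its 8 genes, summed to 485 CPM in cells with Cd3e at 0 and 131 CPM in the others. All 3 genes of that list that could be compared were past 2-fold higher in cells with Cd3e at 0 (median log2 -1.99), and 33.3% of these cells against 4.84% of the others had at least 5 UMIs of the list. The defining marker Il23r had 2 UMIs in the whole set. The part of other innate lymphoid cells in the result was not tested.

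**Figure D5:**
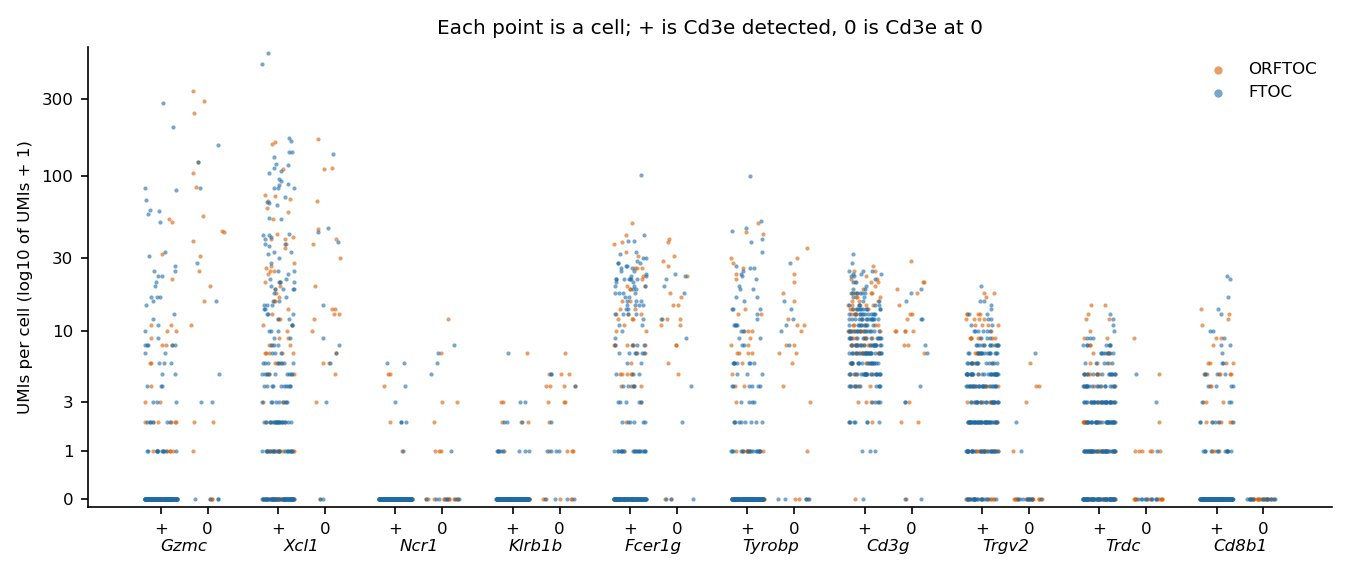
UMIs per cell (log10 of UMIs + 1, vertical axis) of 10 genes in the 310 cells with Cd3e (+) and the 33 cells with Cd3e at 0 (0), orange for ORFTOC and blue for FTOC, without correction for depth. Gzmc reached 338 UMIs and had a median of 20 in the 33 cells, while Cd3g had medians of 9 and 10 in the 2 classes and Cd8b1 was at 0 in all 33.

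Between pools the cells of the set differed in few genes. Of 5485 genes compared, 79 were past 2-fold higher in ORFTOC (1.44 percent) and 17 lower (0.31 percent), with a median log2 ratio of -0.04. In 9 cells (6 ORFTOC, 3 FTOC) at least 5 UMIs of macrophage or of mesenchymal markers were found, 5 with macrophage and 4 with mesenchymal markers. The mesenchymal list summed to 1288 CPM in ORFTOC, with all 6 genes detected, and to 6.32 CPM in FTOC, with 4 detected. Without those 9 cells 18 genes were higher and 16 lower. The part of fibroblast or macrophage RNA in single droplets was not tested beyond this removal.

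The genes higher in ORFTOC by the fixed rule were Cd63, Ctsl, Mfge8, Jchain, Fos, Gsn, Egr1, Tmem176b, Pmepa1 and Igfbp4. Without the 9 cells, Jchain and Fos stayed past 2-fold, with log2 ratios of 2.61 and 1.08, and the others lay between -0.14 and 0.64. Jchain, the immunoglobulin joining chain that some innate lymphoid precursors also transcribe, was at 157 CPM in ORFTOC and 27.8 CPM in FTOC, in 31 cells in all.

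The genes lower in ORFTOC by the rule were Ifitm1, Xist, Ly6c2, Gzmb, Dusp2, Il2rb, Irf8, Cd69, Ifitm2 and Lfng. Ifitm1, an interferon-induced membrane protein gene, was at 140 CPM in ORFTOC and 558 CPM in FTOC, with 91.1% of its UMIs in 34 cells. Ly6c2 was at 417 CPM and 933 CPM, detected in 39.1% and 66.0%. Gzmb was at 340 CPM and 696 CPM although it was detected in 43.8% of ORFTOC and 42.3% of FTOC cells. Il2rb was at 219 CPM and 423 CPM. Klrc2, an activating NKG2 gene, was at 12.0 CPM and 25.3 CPM, and Klrc1, its inhibitory relative, at 1.34 CPM and 25.7 CPM.

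Several leading genes lay near each other in both pools. Trdc was at 210 CPM in ORFTOC and 221 CPM in FTOC, Cd160 at 534 CPM and 525 CPM, Cd7 at 2548 CPM and 2541 CPM, and Ccl5 at 997 CPM and 913 CPM. NK receptors had 1 gene of 14 past 2-fold higher in ORFTOC, Klrb1b, and 0 lower, with a median log2 ratio of 0.11. Klrc1 and Klrc2, both lower in ORFTOC, were under the mean of 20 CPM and not counted. Klrc1 had 63 UMIs in 27 cells of the set. CD3 and TCR genes had 0 of 21 past 2-fold either way, against 1.75 percent of all genes compared between pools. With so small a share, the counts of CD3 and TCR genes and of NK receptors do not set those genes apart. Klrb1b was at 49.5 CPM in ORFTOC and 19.8 CPM in FTOC over the set, and was also higher in ORFTOC within each Cd3e class. Cells with Cd3e at 0 were more frequent in ORFTOC, and the part of this in the Klrb1b difference was not tested.

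Mki67 or Top2a, genes of dividing cells, was detected in 43.1% of the set (37.8 to 48.6), in 32.1% of other immune cells (30.9 to 33.4), which were shallower, and in 52.4% of the Klrd1 cells with a TRB chain (47.1 to 57.6). The share was 43.8% in ORFTOC and 42.8% in FTOC. It was 45.2% in cells with Cd3e (39.5 to 50.9) and 24.2% in cells with Cd3e at 0 (11.1 to 42.3), and 2 of 9 mitosis genes compared were past 2-fold higher in the former (median log2 0.58). None of the 10 genes of S phase and none of the 10 of mitosis was past 2-fold against other immune cells. Of all genes in that comparison 8.46 percent were, so few were to be found in lists of this size. Dissociation stress genes were lower in the set than in other immune cells in 6 of 8 compared, with a median log2 ratio of -1.87.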

How the data were processed

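Single-cell 5′ RNA, hashtag and TCR libraries came from 1 lane. The deposited matrix held raw UMI counts, unfiltered, for 705161 barcodes and 32285 genes (103984163 gene UMIs); per the submitters' processing notes the authors used Cell Ranger 6.1.2, Seurat 4.2.0 and mm10, while the matrix header names another Cell Ranger version. The deposited contig lists gave UMI and read counts per TCR contig, all contigs and a filtered list. Cells were kept with at least 600 genes, 0.4 to 10% mitochondrial UMIs and at least 80% of at least 10 hashtag UMIs in 1 hashtag, which removed doublets between pools and left 9349 of 10245 cells. Likely doublets within a pool were kept and removed in an alternative. The members, gene lists and comparisons were chosen with earlier results of these data known.

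UMIs were summed per group and pool and scaled to CPM. A count under 3 was set to 3 before a ratio was taken. Shares have exact Clopper-Pearson, levels exact Poisson and ratios conditional binomial 95% intervals. With 1 sample per pool no test was run. Named genes were those of the fixed lists, the 15 highest and 10 lowest against other immune cells, and the 10 highest and 10 lowest in each other comparison, with at least 100 CPM and a UMI in 10% of cells of the higher group. Genes outside this rule were chosen after their values were seen. Total UMIs per cell of the set ran from 2588 to 46428. The ratio script was tested on simulated data. Python 3.11.15, NumPy 2.4.6, pandas 2.3.3, SciPy 1.17.1, scikit-learn 1.9.0 and Matplotlib 3.10.9 were used. Genome coordinates were not used here. 1 gene is not reported here.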

Additional observations from a re-analysis of the deposited data

Results flagged for a closer look

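With 1 sample per pool, none of the following differences between pools was tested. They were listed because a gene was on opposite sides of equal level in ORFTOC and FTOC, with counting intervals that left out equality. Against other immune cells 227 genes were examined and 6 were opposite. The log2 ratio of Col3a1 was 1.13 in ORFTOC and -4.37 in FTOC, of Col1a2 0.97 and -2.43, of Dcn 0.98 and -4.41, and of Col1a1 0.93 and -3.49. These 4 genes belong to the mesenchymal list, which only 4 cells, all from ORFTOC, carried at 5 or more UMIs. Without cells that carried macrophage or mesenchymal markers, the set held 0 or 1 UMI of each in ORFTOC and 2 to 6 in FTOC. Ifitm2 was at -1.48 in ORFTOC and 0.29 in FTOC, and the chemokine gene Ccl3 at -1.52 and 0.59. Without the marked cells, Ccl3 was higher in both pools, at 1.46 and 4.04, so the opposite directions were lost, while Ifitm2 was at -2.36 and 0.58.

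Between cells with Cd3e and cells with Cd3e at 0, 203 genes were examined and 5 were opposite. The log2 ratio of Ifit1, an interferon-induced gene, was 1.41 in ORFTOC and -0.91 in FTOC. Klra5 was at -1.12 and 0.94, the cyclin gene Ccnb2 at -0.79 and at least 1.75, Ccl4 at -1.21 and at least 0.58, and Gzmb at -2.23 and 0.56. In FTOC, Ccnb2 and Ccl4 were at 0 in the cells with Cd3e at 0, so their ratios are bounds against 3 counts. The FTOC side of each rests on 12 cells with Cd3e at 0. Against the Klrd1 cells with a TRB chain, 194 genes were examined and 1 was opposite, Col3a1, at 8.49 in ORFTOC and -2.38 in FTOC. Without the marked cells no more than 3 UMIs of Col3a1 remained in either group of either pool, and no ratio is given.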

How the results depend on the processing

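Of 1583 values of 129 named genes past 2-fold, recomputed under 13 alternatives, 1471 stayed past 2-fold in the same direction, 91 fell below 2-fold and 21 reversed, and 16 further values had too few UMIs for a ratio (14 of them with no unfiltered contig allowed); the cause was not tested. Leaving out cells with macrophage or mesenchymal UMIs and leaving out cells with a productive unfiltered contig were chosen after seeing the data. No paired analysis was possible because each pool was 1 sample.

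With no contig allowed in the unfiltered list either, 31 cells remained (27 with Cd3e and 4 at 0), 0.338% of ORFTOC and 0.838% of FTOC immune cells, and the genes past 2-fold numbered 902 against other immune cells, 3194 between the Cd3e classes, 1344 between pools and 517 against cells with a TRB chain. The log2 ratio between pools then reversed for Egr1 (-0.80), Tmem176b (-1.34), Igfbp4 (-1.19), Gzmb (1.95) and Klrc2 (1.07), and against TRB cells for Lyz2 (-2.17) and Apoe (-2.74). Thinned to 1000 UMIs, Cd3e was detected in 42.3% of the set, 1126, 864 and 552 genes passed against other immune cells, between pools and against TRB cells, and the Cd3e ratio reversed for Lyz2 (-0.43), Apoe (-0.76), Mfge8 (-2.14), Cd2 (-1.14), Tbx21 (0.071) and Tcrg-C2 (-0.87). The Cd3e classes were remade on the thinned counts, and 165 of the 198 cells then at 0 had Cd3e at full depth, so these reversals do not bear on the 33 cells.

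The FTOC share of immune cells was 10.3% with at least 1000 genes per cell, 21.0% with 95% hashtag purity and 7.499% with an Nkg7 minimum of 5; the ORFTOC share was 3.55% with a Klrd1 minimum of 2, and ORFTOC gave 43.0% of the set with 95% purity. At a mean of at least 5 CPM, 1538, 1224, 593 and 437 genes passed in the 4 comparisons in the order above, and at 100 CPM 100, 57, 15 and 25. With equal weight per cell 829 genes passed against other immune cells. With the ambient profile subtracted Krt18 reversed (3.44), which its part in setting the share subtracted favours. Without cells with macrophage or mesenchymal UMIs, 34 genes passed between pools, and reversals were Lyz2 (-0.21) between Cd3e classes, Mfge8 (-0.081), Egr1 (-0.016) and Igfbp4 (-0.14) between pools, and Lyz2 (-0.12) and Apoe (-0.036) against TRB cells. Without cells with a productive contig Lyz2 reversed against TRB cells (-1.36).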
